A study of Mus musculus with 4 samples.

Results

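The 36 genes of cholesterol and fatty acid synthesis were described in RNA sequencing libraries of activated lung group 2 innate lymphoid cells (ILC2s), tissue lymphocytes that lack antigen receptors and respond to IL-33 with type 2 cytokines. The members were chosen by name, as the enzymes of the mevalonate, sterol and fatty acid pathways with the SREBP regulators and sterol transporters, and not by their measured values. All 36 were found by gene symbol among the 22558 genes of the count table, and all 36 passed the limits on low values that left 11711 genes for testing.

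The study compared 2 libraries from WT mice (C57BL/6, genotype wildtype) with 2 libraries from ICAM-1 KO mice. All mice were 6 weeks old and had received 3 intranasal injections of 0.5 µg rmIL-33, the recombinant form of the epithelial cytokine that activates ILC2s. Lungs were taken on day 4, and lineage-negative CD45+ ST2+ CD127+ cells were sorted, with the cells of 4 mice pooled in each library. The knockout mice were a germline strain in the study's methods (B6.129S4 background in its name), so ILC2s and the lung around them carried the allele together, and no library came from mice without IL-33. The targeted gene, Icam1 (chromosome 9 of mm10, 21015985 to 21028817, plus strand), had 2579 and 2630 counts in WT against 2812 and 3453 where the label was ICAM-1 KO. The log2 fold change of Icam1 was 0.33 (SE 0.108, adjusted p = 0.0745, quasi-likelihood test of edgeR with Benjamini-Hochberg adjustment). Icam1 RNA was thus not lower under the knockout label, which does not state what the allele removes. Which exons of Icam1 were read cannot be seen from counts summed over the gene. Gm47079, which overlaps it on the opposite strand, had 0 counts in both WT libraries and 4.3 and 9.4 in those labelled ICAM-1 KO. Each direction given here rests on the labels, and those samples are called the KO-labelled libraries.

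Cells make cholesterol from acetyl-CoA through the mevalonate pathway, which first builds isoprenoid units, joins them into squalene and then closes and trims the sterol rings. Fatty acids are made from the same acetyl-CoA and are afterwards lengthened by elongases and given double bonds by desaturases. The SREBP transcription factors switch on both sets of enzymes when sterols in the endoplasmic reticulum run low, while SCAP escorts them to the Golgi and the INSIG proteins hold them back. When sterols are plentiful, oxysterols activate the LXR nuclear receptors. These switch on sterol exporters such as ABCA1 and ABCG1 and also lipid enzyme genes such as Scd1 and Lpcat3. In the lung the same enzymes are known for feeding surfactant lipid in alveolar type 2 cells, and in lymphocytes for building membrane during growth.

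To show the regulatory sequence next to these genes, the 250 bases before each gene start were read from RefSeq (GRCm38.p6), which held an entry for 28 of the 36 members. The 8 without an entry were Fdps, Fdft1, Sqle, Scd1 and Abcg1, which differ between the groups below, and Scd2, Fads1 and Stard4. The motifs were searched on both strands and each on its own, so that matches may share bases. They were the sterol regulatory element TCACNCCAC bound by SREBPs, the E-box CACGTG, the NF-Y box CCAAT, the GC box GGGCGG and AGGTCA. The letters AGGTCA are only a part of an LXR site, and complete LXR sites were not searched. The sterol regulatory element was found in 1 of the 28 members (3.57%) against 1.22% of the 27025 genes with an entry. Only this form of the element was searched, so other forms and sites outside the 250 bases would be missed. The E-box was found in 7 (25%) against 6.86% and the NF-Y box in 21 (75%) against 37.5%. The GC box was found in 23 (82.1%) against 35.4% and AGGTCA in 6 (21.4%) against 15.8%. The comparison genes were not limited to those expressed in these cells, whereas all members passed the limits on low values, so the sets are unlike. Hmgcs1, the mevalonate enzyme with the match to the sterol element, is shown with that match alone in capitals (chr13:119690179-119690258, plus strand, the match starting 137 bases before the gene start). Sc5d and Abca1, which both had higher values in the KO-labelled libraries, are shown over all 250 bases with E-box, NF-Y box and GC box matches in capitals (chr9:42264301-42264550 and chr4:53159896-53160145, both on the minus strand).
Hmgcs1: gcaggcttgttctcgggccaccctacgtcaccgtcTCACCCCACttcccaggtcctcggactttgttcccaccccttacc
Sc5d: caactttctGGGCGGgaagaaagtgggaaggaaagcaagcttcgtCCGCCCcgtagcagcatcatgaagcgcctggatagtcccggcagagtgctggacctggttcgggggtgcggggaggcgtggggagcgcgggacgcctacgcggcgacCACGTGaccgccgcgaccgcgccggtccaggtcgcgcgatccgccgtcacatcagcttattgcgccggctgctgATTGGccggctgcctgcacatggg
Abca1: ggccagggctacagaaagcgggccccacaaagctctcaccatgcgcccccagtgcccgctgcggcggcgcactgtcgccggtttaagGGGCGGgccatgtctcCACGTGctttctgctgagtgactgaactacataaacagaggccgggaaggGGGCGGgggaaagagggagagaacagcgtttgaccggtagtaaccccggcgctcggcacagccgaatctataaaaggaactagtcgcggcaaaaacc
In Sc5d the E-box match starts 98 bases and the NF-Y match 24 bases before the gene start, and in Abca1 the E-box match starts 147 bases before it. Neither of these 250-base windows holds the sterol element or AGGTCA in the letters searched. Whether they hold a complete LXR site was not tested. A match on the other strand appears as the reverse complement, ATTGG for the NF-Y box and CCGCCC for the GC box. Such matches describe letters and not binding.

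The libraries held 24796148 to 28782471 estimated counts, and the 36 members took 0.299% and 0.293% of them in WT and 0.307% and 0.292% in the KO-labelled libraries. Over the genes tested, log2 CPM values correlated at 0.966 and 0.969 within groups and at 0.93 to 0.938 between groups. The summed normalized count of 14 ILC2 marker genes was 8946 and 9459 in WT and 7610 and 7805 in the KO-labelled libraries. No library of other sorted cells was there to compare with, so these values do not test the ILC2 label. The marker sums of 5 other kinds of lung cells were higher in the KO-labelled libraries, and their values stand beside the members that rose.

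Of the 36 members, 4 were higher and 3 were lower in the KO-labelled libraries than in WT at an adjusted p under 0.05 (same test, adjusted over the 11711 genes). The 4 higher members were the fatty acid desaturase gene Scd1, the sterol exporters Abca1 and Abcg1, and the late sterol enzyme gene Sc5d. The 3 lower members, Fdps, Fdft1 and Sqle, encode 3 consecutive steps from isoprenoid units to squalene epoxide. The share of members called higher was 11.1% against 8.8% of all genes tested, and the share called lower was 8.33% against 4.97%, so both shares were near those of the whole table. With a change of at least 2-fold required as well, 3 members (8.33%) stayed higher, against 4.94% of all genes, and 0 stayed lower, against 0.538%. On total counts without scaling factors the same test called 5 members higher and 1 lower. An unadjusted p under 0.05 from the same test was found for 11 of the 36 members and for 3542 of the 11711 genes, which are nearly equal shares.

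**Figure D1:**
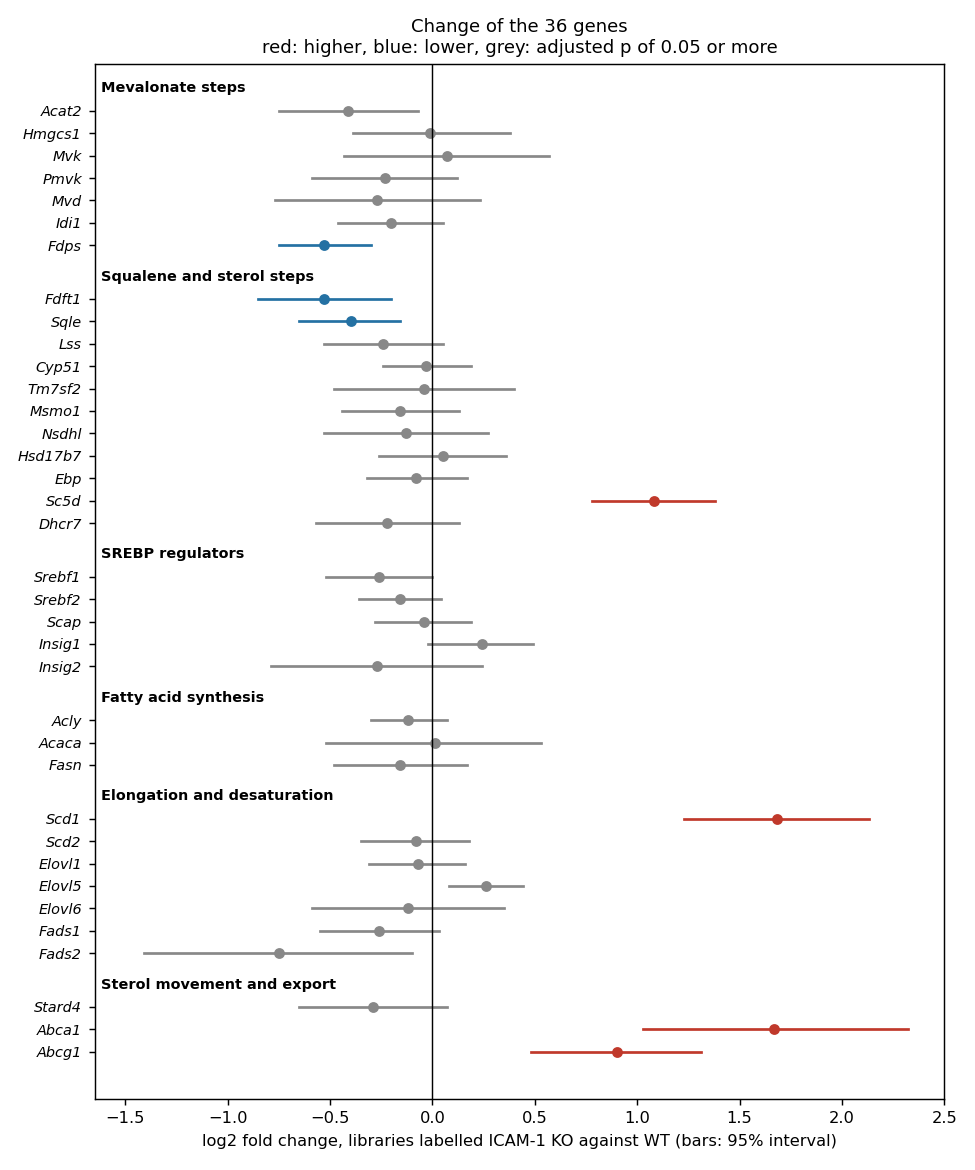
The log2 fold change of each of the 36 genes between the KO-labelled libraries and WT is plotted on the horizontal axis, by role, with bars for the 95% interval of the edgeR fit (2 libraries per group). Scd1, Abca1, Sc5d and Abcg1 stand to the right in red at 0.90 to 1.68, Fdps, Fdft1 and Sqle to the left in blue at -0.53 to -0.40, and the other 29 genes are grey.

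The median log2 fold change over the members was -0.12, against 0.01 over all genes tested. Of the members, 9 lay above 0 and 27 below (25 to 28 below under the other scalings), against 5999 and 5712 of all genes tested. Without replicate 2 of the KO-labelled libraries 22 members were below 0, and without WT replicate 1 24 were. Both KO-labelled libraries lay below both WT libraries for 18 members (50%, against 31.3% of all genes) and above both for 6 (16.7%, against 28.3%), and the groups overlapped for 12. Most of these shifts were small. For 31 of the 36 members, and for 28 of the 29 that did not pass the test, the 95% interval of the log2 fold change lay within 1 of 0, so a 2-fold change in either direction lay outside it.

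The genes of the mevalonate steps, which turn acetyl-CoA into isoprenoid units, had a log2 fold change below 0 for 6 of 7 members. Over all genes tested, 5712 of 11711 were below 0. Both KO-labelled libraries lay below WT for 4 of the 7, while 31.3% of all genes did so. The groups overlapped for 3, and only Fdps passed the test. Fdps (chromosome 3 of mm10, 89093588 to 89101959, minus strand) makes farnesyl pyrophosphate, the branch point towards sterols and prenylated proteins. Its normalized count was 133 and 126 in the WT libraries and 85.6 and 90.9 in the KO-labelled ones. The groups did not overlap, and the mean fell from 130 ± 4.9 to 88.2 ± 3.73 (SD, n = 2 libraries each), a log2 fold change of -0.53 (SE 0.0991, adjusted p = 0.0114 from edgeR). Without WT replicate 1 its adjusted p was 0.0591. Of its 50-base stretches, 11.7% also occur in other genes, foremost the gene models Gm43738 and Gm3571.

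Idi1, the isomerase that balances both isoprenoid units and the most abundant of the 7 per length, had normalized counts of 107 and 119 in WT and 90.5 and 103 in the KO-labelled libraries. These groups lay apart by a small margin, and the log2 fold change of -0.20 (SE 0.112) did not pass the test (adjusted p = 0.263, edgeR). Acat2, which joins acetyl-CoA units at the entry of the pathway, had 40.2 and 37.7 against 31.1 and 26.6, a log2 fold change of -0.41 (adjusted p = 0.102, edgeR), and 45.9% of its 50-base stretches also occur in other genes, foremost Acat3 and Tcp1. The remaining 4, Hmgcs1, Mvk, Pmvk and Mvd, had log2 fold changes from -0.27 to 0.07. Hmgcs1 stood at -0.01 with a 95% interval of -0.39 to 0.38, and its KO-labelled libraries, at 60.4 and 41.6, enclosed the WT libraries at 54.0 and 50.1.

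The squalene and sterol steps held genes that moved in opposite directions. Of the 11 members, Fdft1 and Sqle were lower, Sc5d was higher and the other 8 did not pass the test. Fdft1 (chromosome 14, 63145150 to 63179578, minus strand), the squalene synthase that commits isoprenoids to sterols, had normalized counts of 42.3 and 40.0 in WT and 27.2 and 28.9 in the KO-labelled libraries. The groups did not overlap, and the mean fell from 41.2 ± 1.67 to 28 ± 1.2 (SD, n = 2), a log2 fold change of -0.53 (SE 0.143, adjusted p = 0.0414 from edgeR). Ctsb, on the opposite strand, shares 774 exon bases with Fdft1 and had 10943 to 12878 counts per library, and the sources used here do not state whether the counting used strand.

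Sqle (chromosome 15, 59315077 to 59331192, plus strand), the squalene epoxidase that is a rate-limiting oxygen-dependent step, had normalized counts of 74.5 and 72.5 in WT and 54.9 and 54.1 in the KO-labelled libraries. The libraries of each group lay close together, and the mean fell from 73.5 ± 1.46 to 54.5 ± 0.553 (SD, n = 2), a log2 fold change of -0.40 (SE 0.109, adjusted p = 0.0413 from edgeR). Neither Fdft1 nor Sqle passed the test when any of the 4 libraries was left out, with adjusted p from 0.0812 to 0.162 for Fdft1 and from 0.103 to 0.129 for Sqle, while the log2 fold changes stayed between -0.58 and -0.38.

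Sc5d (chromosome 9, 42251595 to 42264256, minus strand) encodes the sterol desaturase that acts near the end of the pathway, just before Dhcr7. Its normalized count was 69.2 and 89.7 in WT and 156 and 173 in the KO-labelled libraries. Both of the latter lay far above both WT libraries, and the mean rose from 79.5 ± 14.5 to 165 ± 12.2 (SD, n = 2), a 2.11-fold difference (log2 fold change 1.08, SE 0.134, adjusted p = 0.00192 from edgeR). Within the same libraries the count of Sc5d was 0.928 and 1.24 times that of Sqle in WT and 2.85 and 3.21 times in the KO-labelled libraries. Relative to Dhcr7, its neighbour in the pathway, it was 2.14 and 2.54 times in WT and 5.08 and 6.62 times in the others. Both ratios restate the counts of these genes, with Sc5d already called higher, and are no separate support.

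Sc5d lies on the same chromosome as Icam1, 21.2 Mb away. Within 1 Mb of Sc5d, 4 other genes were tested, 1 was higher and 1 lower, and their median log2 fold change was 0.27. Within 5 Mb, 63 other genes were tested, 9 of them were higher and 5 lower, and the median was 0.07. Over all genes tested, 8.8% were higher and 4.97% lower. The part of the chromosomal position in the value of Sc5d was not tested. Scap and Elovl5, the other members on this chromosome, lie 89.3 Mb and 56.9 Mb from Icam1 and did not pass the test.

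Among the 8 sterol genes that did not pass the test, log2 fold changes ran from -0.24 for Lss, the cyclase that closes the rings, to 0.05 for Hsd17b7. Cyp51, the demethylase of lanosterol and the most abundant of the branch per length, had normalized counts of 183 and 164 in WT and 165 and 170 in the KO-labelled libraries. The groups overlapped, and the log2 fold change was -0.03 with a 95% interval of -0.24 to 0.19. Over all 18 mevalonate and sterol genes, 15 log2 fold changes were below 0 and the median was -0.18. Of all genes tested, 5712 of 11711 were below 0. The summed normalized count of the 18 was 1099 and 1093 in WT and 1038 and 1032 in the KO-labelled libraries. For the 11 squalene and sterol genes alone it was 690 and 697 against 709 and 714. Sc5d was set apart after its values were seen. Without it the median was -0.20 and the sums were 1029 and 1004 against 882 and 858, which partly follows from that choice.

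**Figure D2:**
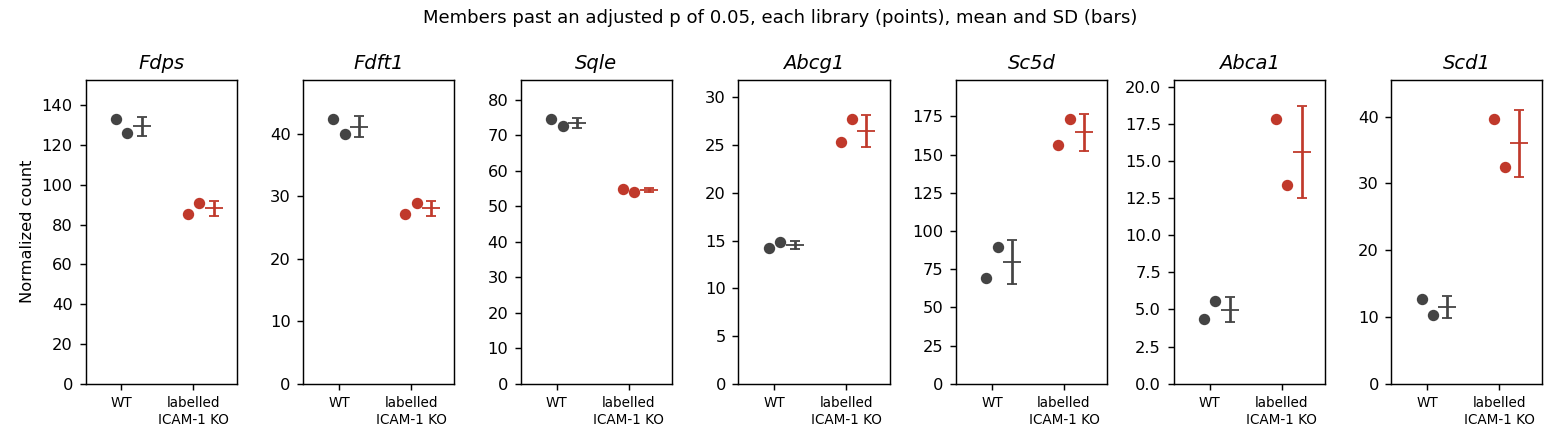
Normalized counts of the 7 members past an adjusted p of 0.05 are plotted on the vertical axis for each library (points) with the group mean and SD (bars, n = 2). Fdps, Fdft1 and Sqle are lower and Abcg1, Sc5d, Abca1 and Scd1 higher in the KO-labelled libraries, with no overlap between groups.

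None of the 5 SREBP regulators passed the test. Srebf2, which encodes the SREBP that mainly drives sterol genes and was the most abundant of the 5 per length, had normalized counts of 233 and 221 in WT and 205 and 193 in the KO-labelled libraries. The groups lay apart, but the log2 fold change of -0.16 (SE 0.0868) had an adjusted p of 0.249 (edgeR). Srebf1, whose product mainly drives fatty acid genes, had 124 and 113 against 89.5 and 105, a log2 fold change of -0.26 (adjusted p = 0.164, edgeR). The count of Srebf1 was 0.532 and 0.513 times that of Srebf2 in WT and 0.437 and 0.541 times in the KO-labelled libraries, so that ratio overlapped between groups.

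Insig1 and Insig2, which retain SREBPs in the endoplasmic reticulum, had log2 fold changes of opposite sign. Insig1, itself an SREBP target, had 59.6 and 65.8 in WT and 75 and 70.3 in the KO-labelled libraries, a log2 fold change of 0.24 (adjusted p = 0.194, edgeR). Insig2 had 25.9 and 23.5 in WT and 24.7 and 15.6 in the KO-labelled libraries, and its log2 fold change of -0.27 (adjusted p = 0.456, edgeR) rested on replicate 2 of the latter, without which it was 0.02. Scap, the escort protein gene, was nearly level, at 77.7 and 77.4 against 75.2 and 72.7.

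The core genes of fatty acid synthesis did not pass the test. Acly, which frees acetyl-CoA from citrate, had normalized counts of 276 and 280 in WT and 253 and 250 in the KO-labelled libraries, with a log2 fold change of -0.12 (95% interval -0.30 to 0.07). Fasn, the fatty acid synthase gene, had 122 and 103 against 113 and 85.2, and its groups overlapped (log2 fold change -0.16, 95% interval -0.48 to 0.17, and 0.03 without replicate 2 of the KO-labelled libraries). Acaca, the acetyl-CoA carboxylase gene, had 14.6 and 14.4 against 12.2 and 16.3 (log2 fold change 0.01), and 52.6% of its 50-base stretches also occur in another gene model, Gm5182.

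Among the 7 genes of elongation and desaturation, Scd1 alone passed the test. Scd1 (chromosome 19, 44394451 to 44407709, minus strand) encodes the desaturase that turns saturated into monounsaturated fatty acids. Its normalized count was 12.7 and 10.3 in WT and 39.6 and 32.5 in the KO-labelled libraries. The groups were well apart, and the mean rose from 11.5 ± 1.68 to 36 ± 5.01 (SD, n = 2), a 3.20-fold difference (log2 fold change 1.68, SE 0.197, adjusted p = 0.00153 from edgeR) and, with Abca1, among the highest of the 36 members. Scd2, a paralog with the same activity that lies close to it on chromosome 19, had 119 and 126 against 126 and 101, a log2 fold change of -0.08 (95% interval -0.35 to 0.18). The count of Scd1 was therefore 0.106 and 0.0816 times that of Scd2 in WT and 0.314 and 0.321 times in the KO-labelled libraries. Of the 50-base stretches of Scd1, 4.66% also occur in other genes, foremost Scd3 and Scd2.

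Elovl5, the elongase of polyunsaturated fatty acids, was the member with the highest level per length. It had normalized counts of 289 and 295 in WT and 339 and 348 in the KO-labelled libraries. The groups lay apart by more than their spread, but the log2 fold change of 0.26 (SE 0.0816, 95% interval 0.08 to 0.44) had an adjusted p of 0.0655 (edgeR), which was 0.0350 on total counts and 0.0314 with DESeq2. Fads2, a desaturase of polyunsaturated fatty acids, had the most negative log2 fold change of the 36 members, -0.75, with a wide 95% interval of -1.41 to -0.10 (adjusted p = 0.116, edgeR). It was low in every library, at 9.48 and 8.61 in WT and 5.76 and 4.81 in the KO-labelled libraries. Fads1, Elovl1 and Elovl6 had log2 fold changes from -0.26 to -0.07.

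The sterol exporters rose. Abca1 (chromosome 4, 53030787 to 53159895, minus strand), the transporter that loads cholesterol onto apolipoproteins, had normalized counts of 4.39 and 5.57 in WT and 17.8 and 13.4 in the KO-labelled libraries. All 4 values were low, the groups were apart, and the mean rose from 4.98 ± 0.836 to 15.6 ± 3.08 (SD, n = 2), a 3.19-fold difference (log2 fold change 1.67, SE 0.285, adjusted p = 0.0079 from edgeR). Abcg1 (chromosome 17, 31057698 to 31115777, plus strand), which exports cholesterol to mature lipoprotein particles, had 14.2 and 14.8 in WT and 25.3 and 27.7 in the KO-labelled libraries. Its mean rose from 14.5 ± 0.419 to 26.5 ± 1.71 (SD, n = 2), a 1.86-fold difference (log2 fold change 0.90, SE 0.183, adjusted p = 0.0152 from edgeR). Without WT replicate 1, WT replicate 2 or replicate 2 of the KO-labelled libraries, its adjusted p was 0.066, 0.0567 and 0.055. Stard4, which carries cholesterol inside the cell, had 31.4 and 32.6 against 27.9 and 23.7, a log2 fold change of -0.29 (adjusted p = 0.259, edgeR).

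Genes listed as markers of other lung cells rose in the same libraries as Scd1, Abca1, Abcg1 and Sc5d. How much of their RNA came from the ILC2s themselves was not tested. The summed normalized count of 12 alveolar type 2 markers, among them the surfactant genes Sftpc and Sftpb, was 127 and 91.5 in WT and 532 and 998 in the KO-labelled libraries, with 9 of the 12 higher and a median log2 fold change of 2.83. Of 16 macrophage and monocyte markers 14 were tested, 12 were higher (median 1.31), and their sum was 502 and 745 against 1678 and 2335. The largest part of that sum was Chil3, at 211 and 423 against 1052 and 1423. The study's authors cite work that found Chil3, and Cxcl15 of the alveolar type 2 list, in IL-10-producing lung ILC2s. All 12 endothelial markers were higher (median 1.48), with sums of 262 and 250 against 610 and 612. Calcrl was the largest part, at 99.3 and 82 against 189 and 167. The 8 markers of B and plasma cells, 6 of them higher, summed to 252 and 427 against 670 and 800. Jchain, the largest part at 74.2 and 234 against 266 and 442, did not pass the test. The 8 markers of T cells, 5 of them higher, summed to 318 and 406 against 667 and 814. The log2 fold change was below 0 for 2 of these 8, among them Cd3g, at 114 and 127 against 81.1 and 107. No marker of these 5 lists was at 0 in both libraries of a group, although the sort gate excluded cells with lineage proteins of T cells, B cells and myeloid cells and required CD45, which alveolar type 2 and endothelial cells lack, and the study's methods describe the sorted cells as highly pure. Their part in the rise of Scd1, Abca1, Abcg1 and Sc5d was not tested. In pooled sorted cells, fewer cells of a type and less RNA per cell cannot be told apart.

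**Figure D3:**
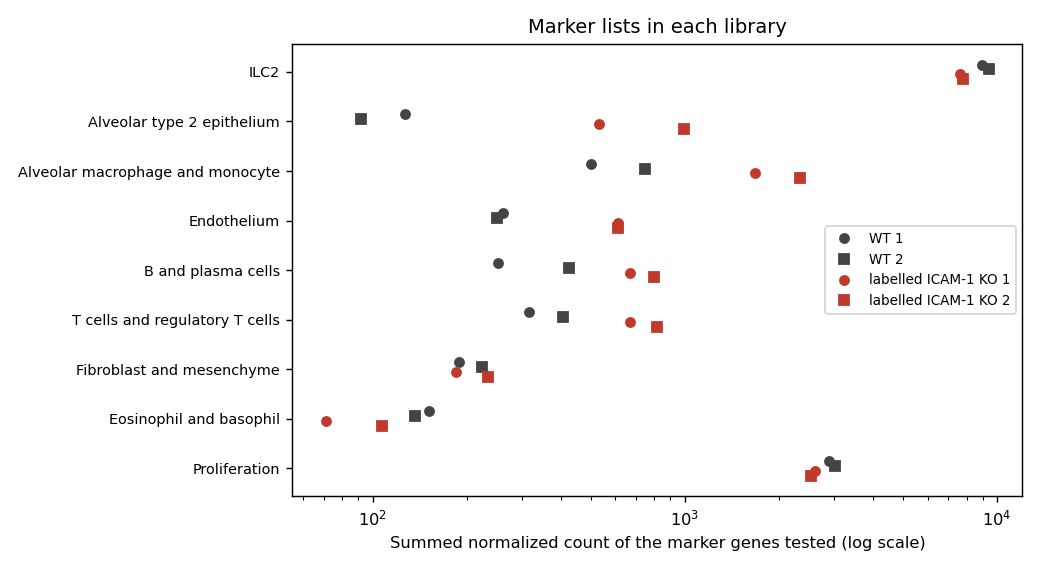
The summed normalized count of the tested genes of each marker list is plotted on a log horizontal axis, with 1 point for each of the 4 libraries. The KO-labelled libraries (red) lie to the right of WT (grey) for alveolar type 2, macrophage, endothelial, B cell and T cell markers, and to the left for ILC2, eosinophil and proliferation markers.

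The remaining marker lists moved in both directions. Of the 14 ILC2 markers, 5 were lower and 2 higher (median log2 fold change -0.10). Among the lower ones Il13 had 31.6 and 35.2 against 11.1 and 12.9 and Id2 had 1340 and 1364 against 842 and 962, while the higher ones were Klrg1, at 384 and 346 against 466 and 484, and Ptprc, at 706 and 701 against 920 and 896. The 12 proliferation genes had a median of -0.20, with 2 lower and summed normalized counts of 2894 and 3032 against 2619 and 2530. None of 6 fibroblast markers tested passed the test, although 5 of the 6 log2 fold changes were above 0 and their median was 0.98. Their sums, 189 and 224 against 185 and 235, were mostly Plin2, at 177 and 179 against 148 and 160. Of 5 eosinophil and basophil markers Ccr3 was higher, Prg2 and Epx were lower, and the sums were 152 and 137 against 70.7 and 107. Epx had 1027 and 739 counts in WT and 0 in both KO-labelled libraries. The part of these markers in the fall of Fdps, Fdft1 and Sqle was not tested.

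Levels were compared between members as the normalized count per kb of exon, averaged over the 4 libraries. Elovl5 was highest at 90.3, above 94.8% of the genes tested, followed by Acly at 50.2, Elovl1 at 39.2, Cyp51 at 38.6 and Ebp at 35.1. The lowest levels were those of Acaca at 0.844, Abca1 at 0.994, Fads2 at 2.17, Elovl6 at 2.75 and Abcg1 at 2.81. The median of the members was 10.5 against 6.7 over all genes with a length, and 25 of the 36 lay above the latter. By role, the median level was 19.1 for the SREBP regulators, 13.3 for the mevalonate steps and 2.81 for sterol movement and export.

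**Figure D4:**
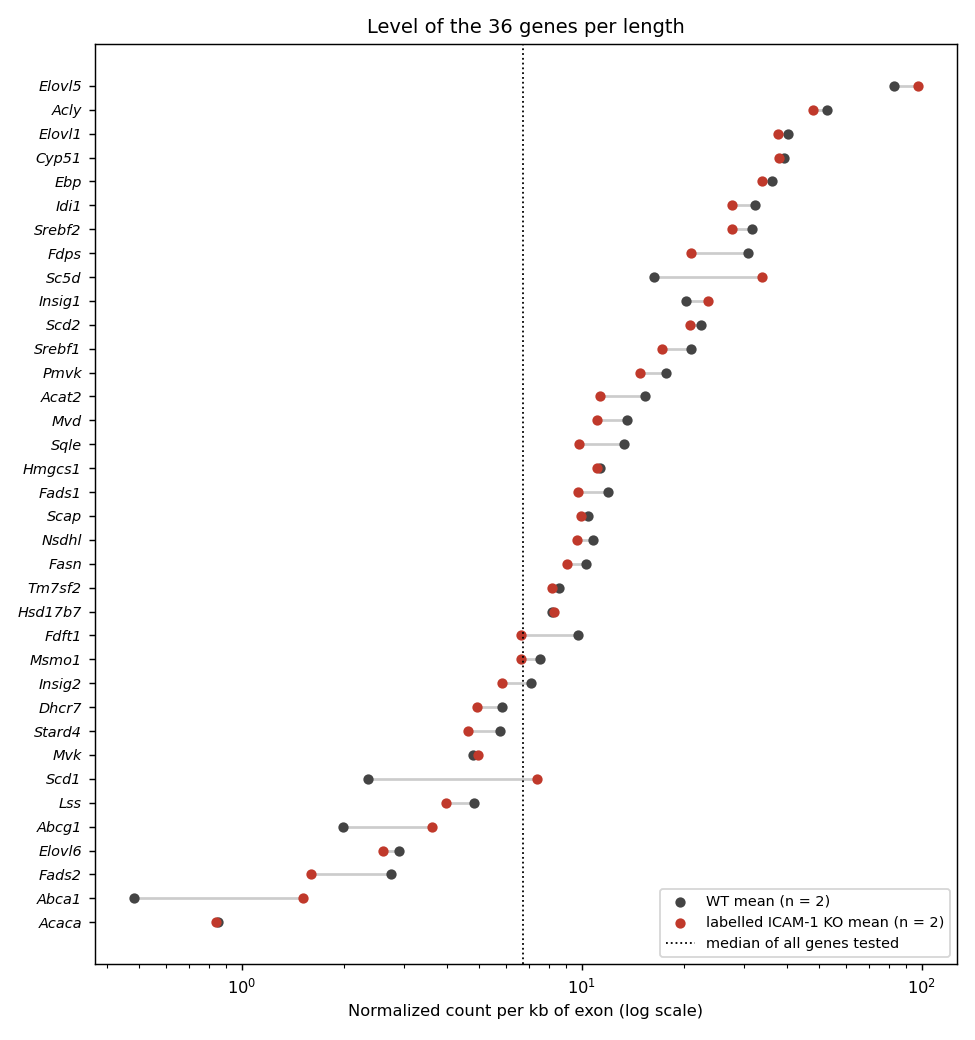
The mean normalized count per kb of exon of each of the 36 genes is plotted on a log horizontal axis for WT (grey) and the KO-labelled libraries (red), 2 libraries each, ordered by the mean over both. The dotted line is the median of all genes tested at 6.7, and 25 of the 36 genes lie above it by their mean.

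The rest of the pathway was read from 4 lists of genes outside the 36. The 8 further sterol and isoprenoid enzymes, all tested, had a median log2 fold change of -0.09. The genes of SREBP processing, sterol uptake and esterification, 15 of 18 tested, held none that passed the test (median 0.21).

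Of the 11 LXR and oxysterol genes 7 were tested, with 2 higher and 1 lower (median 0.22). Apoe, the gene of an apolipoprotein that accepts exported cholesterol, rose from 25.3 and 19.5 to 57.3 and 70.0 (log2 fold change 1.54, SE 0.173, adjusted p = 0.00143 from edgeR). Rxra, the partner receptor of LXR, rose from 7.76 and 9.15 to 18.7 and 21.8 (log2 fold change 1.29, SE 0.229, adjusted p = 0.00945 from edgeR). Lpcat3, which puts polyunsaturated fatty acids into phospholipids, fell from 226 and 219 to 154 and 163 (log2 fold change -0.46, SE 0.0889, adjusted p = 0.0123 from edgeR). The LXR gene Nr1h2 stood at -0.07, and Nr1h3 had 3 and 39 counts in WT and 41 and 66 in the KO-labelled libraries, below the limits for testing. Of 32 other fatty acid and glycerolipid enzymes 20 were tested and 2 were lower (median -0.17). These were Slc25a1, the citrate carrier that supplies Acly, at 96.6 and 83.5 against 58.2 and 62.5 (log2 fold change -0.55, adjusted p = 0.0189 from edgeR), and Tecr, which completes fatty acid elongation, at 244 and 226 against 175 and 191 (log2 fold change -0.33, adjusted p = 0.0467 from edgeR).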

How the data were processed

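RNA of sorted ILC2s was measured in 2 WT and 2 ICAM-1 KO libraries, grouped by the labelled genotype. Per the study's methods, 10 ng of RNA was made into cDNA with a SMARTer low-input kit and sequenced on a NextSeq 500, and STAR was run by the authors against mm10 with the GENCODE M20 annotation. The submitters' processing notes list STAR 3.5.3, CASAVA 1.8.2 and Partek, whereas the study's methods name a different STAR version, and whether strand was used in counting is not given in the sources used here. The authors deposited estimated counts per gene, in which reads that fit several genes are split, and 56.7% of the values are whole within 0.001. The authors also deposited a normalized signal, called the normalized count here, in which 1 was added to the count before scaling by a factor of the library, with an upper quartile of 41.9 in every library.

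Differences were tested on the estimated counts, rounded to whole numbers, by the quasi-likelihood method of edgeR 4.0.16 in its newer form (legacy = FALSE; R 4.3.3). Library sizes were scaled by the upper quartile, and the model held genotype alone. Genes entered where the normalized counts averaged 1 or more and summed to 10 or more (11711 genes), and a gene was called higher or lower at a Benjamini-Hochberg adjusted p under 0.05. Means and SDs are over normalized counts, and intervals are 95% intervals of the fit. Exon lengths and shared 50-base stretches came from GENCODE M21, whose coordinates matched 21888 of the 22558 genes, and a further 489 were matched by symbol and overlap. The script was tested on simulated data. Alternatives were TMM factors, DESeq2 size factors, total counts, DESeq2 1.42.0, limma 3.58.1 on log2 of the normalized count, the older edgeR method, 3 other filters, a replicate block, a 2-fold limit and leaving out each library.

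Given in full were the members past the threshold and, in each of the 6 roles, the member with the highest level per kb and that with the largest absolute log2 fold change. Fads2, Acat2, Insig1, Srebf1, Scd2, Hmgcs1, Scap and Acaca were also given values, chosen after these were seen. Genes of the 4 other pathway lists were named where called, except for some genes not reported here, and Nr1h2, Nr1h3, Il13, Id2, Klrg1, Ptprc, Plin2, Ccr3, Prg2 and Epx were chosen after their values were seen. The members and lists were chosen with earlier results of these data known. Nothing in the labels says that pools share animals, and p-values measure only the spread between pools, not between mice. Libraries held 24796148 to 28782471 counts, and without molecular identifiers PCR copies cannot be told from molecules. The authors' own differential analysis (GSA in Partek) was not run.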

Additional observations from a re-analysis of the deposited data

How the results depend on the processing

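Scd1, Sc5d and Abca1 stayed higher with an adjusted p under 0.05 in all 14 alternative fits, with log2 fold changes of 1.53 to 1.84 for Scd1, 0.91 to 1.28 for Sc5d and 1.47 to 1.86 for Abca1. The number of members higher was 3 to 5, since Abcg1 was lost with no filter (adjusted p = 0.0537, edgeR) and Elovl5 was added on total counts and with DESeq2. The number of members lower was 0 with a 2-fold limit, 1 on total counts, 1 with no filter and 0 to 1 when each library was left out in turn. On total counts, without a filter and with the replicate block, Fdps stayed lower and Fdft1 (0.0522, 0.0844 and 0.0528) and Sqle (0.0575, 0.0861 and 0.0535) lost the call. Over all genes, 578 were higher and 63 lower with the 2-fold limit, 334 and 201 with no filter, and 479 to 948 and 158 to 388 when each library was left out, while DESeq2 called 930 lower. The median log2 fold change of the members was -0.17 with no filter and -0.17 to -0.11 when each library was left out. Of the 15 members given in full, the sign turned for 3, none of which passed the test, and over all 36 members 22 to 27 log2 fold changes were below 0 when each library was left out. Cyp51 stood at 0.01 on total counts and at -0.10 to 0.06 when each library was left out, Insig2 at -0.63 to 0.02 and Fasn at -0.36 to 0.03. Where a library was left out, the lone library was assumed to vary like the other group. The causes of these changes were not tested.

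The WT and KO-labelled pools came from different mice, and no label pairs the replicate numbers. Same-numbered libraries deviated from their group means with a correlation of -0.0582. With 2 libraries per group that value cannot decide whether same-numbered libraries were handled together. With the replicate number as a block, 1077 genes were higher and 638 lower, and of the members 4 were higher and 1 lower.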
